A study of Mus musculus with 10 samples.

Results

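The dual-specificity MAP kinase phosphatases were examined in RNA sequencing data from mouse lung tumours. The tumours were labelled control or knockout (KO) for the glucose transporter gene Glut1 (Slc2a1). The set comprised 10 genes, Dusp1, Dusp2, Dusp4, Dusp5, Dusp6, Dusp7, Dusp8, Dusp10, Dusp14 and Dusp16, of 39017 genes in the count table, each found by its symbol. The genes were chosen by family membership with their CPM and their Glut1-KO against control fold changes in these libraries already known, so their differences between genotypes are given as a description, with no p-value per gene. MAP kinases (ERK, JNK and p38) are active only while a threonine and a tyrosine in their activation loop are phosphorylated, and these phosphatases remove both phosphates. Many of them are themselves transcribed in response to ERK, JNK or p38, so that they form a negative feedback on the pathway that switched them on.

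Tumours were initiated in C57BL/6 mice by intratracheal Ad5CC10-Cre, an adenovirus whose Cre is driven by a promoter active in club cells, the CC10-positive secretory cells of the airways. Both groups carried p53Fl/Fl among other alleles, and the Glut1-KO group (KPG1) also carried Glut1Fl/Fl. The controls (KP) are labelled heterozygous fl/wt, the design text calls them Glut1-WT, and the methods of the study mention controls of both kinds. Lung tumours were macrodissected at 20 weeks and 1 day after initiation, dissociated and depleted of immune cells with anti-CD45 beads, so that each library is a bulk mixture of tumour and other CD45-negative cells. There were 5 libraries per group. All 5 controls were labelled male, as were Glut1-KO replicates 4 and 5, whereas Glut1-KO replicates 1 to 3 were labelled female. The labels do not say that the libraries came from separate animals, and the deposited names carry a further number that took 2 values among the controls and 4 among the Glut1-KO libraries. Every p-value therefore measures the spread between libraries only.

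The libraries held 35250991 to 49760462 counts. Slc2a1, the targeted gene, stood at 73.2 to 118 CPM (counts relative to the library total, TMM-scaled) in the controls, at 60.3, 42.5 and 34.6 CPM in the female Glut1-KO libraries, and at 92.4 and 103 CPM in the male ones. Slc2a1 RNA in both male libraries labelled Glut1-KO thus lay within the control range, and the group names below are those of the labels. Epithelial markers summed to 22600 to 56900 CPM in controls and 40000 to 54600 CPM in Glut1-KO, and leukocyte markers to 335 to 467 and 356 to 589 CPM, most of it from Lcp1 (277 to 426 and 299 to 528 CPM). Ptprc, the gene of CD45, stood at 2.3 to 3.26 CPM in controls and 5.05 to 10.1 CPM in Glut1-KO, with no overlap.

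All 10 phosphatases passed the filter on low counts, with 102 reads (Dusp2 in Glut1-KO replicate 4) to 26430 reads (Dusp6 in control replicate 2) per library. Between genes, levels were compared as RPKM, that is TMM-scaled CPM per kilobase of annotated exon. Dusp6 (125 ± 25.5 RPKM, mean ± SD, n = 5) and Dusp1 (117 ± 8.51 RPKM) were the most abundant in controls, at percentiles 98.1 and 98.0 of 15761 tested genes with an exon length. Their ranges overlapped, and they made up 36.1% and 34.1% of the summed RPKM of the 10 genes. Dusp4 followed at 36.9 ± 4.25 RPKM, with a range apart from its neighbours on either side. Dusp16 (22.7 ± 5.51 RPKM) and Dusp5 (16.8 ± 3.57 RPKM) came next and overlapped each other. Dusp10 (8.86 ± 1.1), Dusp7 (6.03 ± 0.837), Dusp14 (4.35 ± 1.56), Dusp2 (4.19 ± 1.74) and Dusp8 (2.59 ± 1.16 RPKM) completed the order, each overlapping the next, around the median of 5.37 RPKM over all those genes. In the Glut1-KO libraries the order of the means was the same but for Dusp10, which stood in the seventh place in place of the sixth (3.68 ± 1.13 RPKM) behind Dusp7 (6.05 ± 0.781 RPKM).

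**Figure D1:**
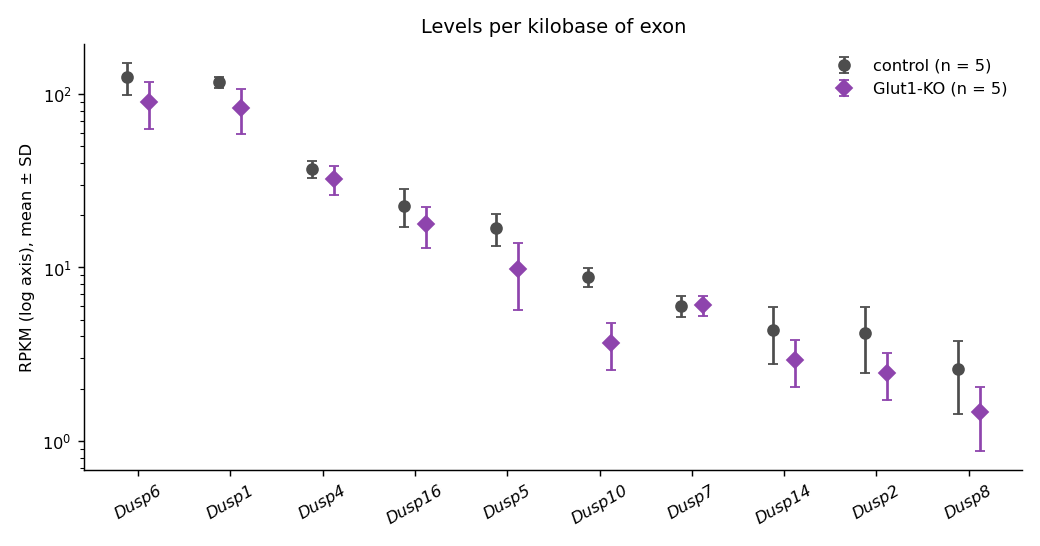
Level of each phosphatase per kilobase of exon (RPKM on a log axis; mean and SD over 5 libraries per group), ordered by the control mean. Dusp6 and Dusp1 lie above 80 RPKM in both groups and Dusp8 lowest, and Dusp10 is the member whose error bars are farthest apart between the groups.

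The phosphatases also differed in their spread among the 5 controls, which carry 2 numbers in the deposited names. The percentile given here is among all genes, with no matching for level. The coefficient of variation of Dusp1 was 7.29%, at percentile 5.6 of all genes tested, and those of Dusp4 (11.5%), Dusp10 (12.4%) and Dusp7 (13.9%) lay below the median of 22% as well. Dusp6 (20.3%), Dusp5 (21.3%) and Dusp16 (24.2%) were near that median. The low-abundance genes Dusp14 (35.9%), Dusp2 (41.6%) and Dusp8 (44.8%) varied most.

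Across the comparison of genotypes, 9 of the 10 phosphatases had a lower fitted level in Glut1-KO than in control tumours and Dusp7 had nearly equal means. Their median log2 fold change was -0.53, beside 0 over all 15922 genes tested. Negative values were found for 50.7% of all genes. In limma with Benjamini-Hochberg adjustment over all genes, 0 phosphatases passed the threshold of 0.05, as did 0 genes in all (background 0%), and edgeR's quasi-likelihood test also called 0. At an unadjusted limma p under 0.05 there were 5 phosphatases, all lower, against a background of 4.02% of genes lower and 7.68% in either direction. DESeq2 called 1 phosphatase, Dusp10, against 0.676% of genes called lower and 0.708% called higher. The ranges of the 2 groups did not overlap for Dusp1 and Dusp10, both lower in Glut1-KO, which held for 1.06% of all genes. These counts describe the same contrast that was known when the genes were picked and nothing is read from them. In bulk tumour RNA, fewer cells of a type that contains the transcript and less transcript per cell cannot be told apart.

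**Figure D2:**
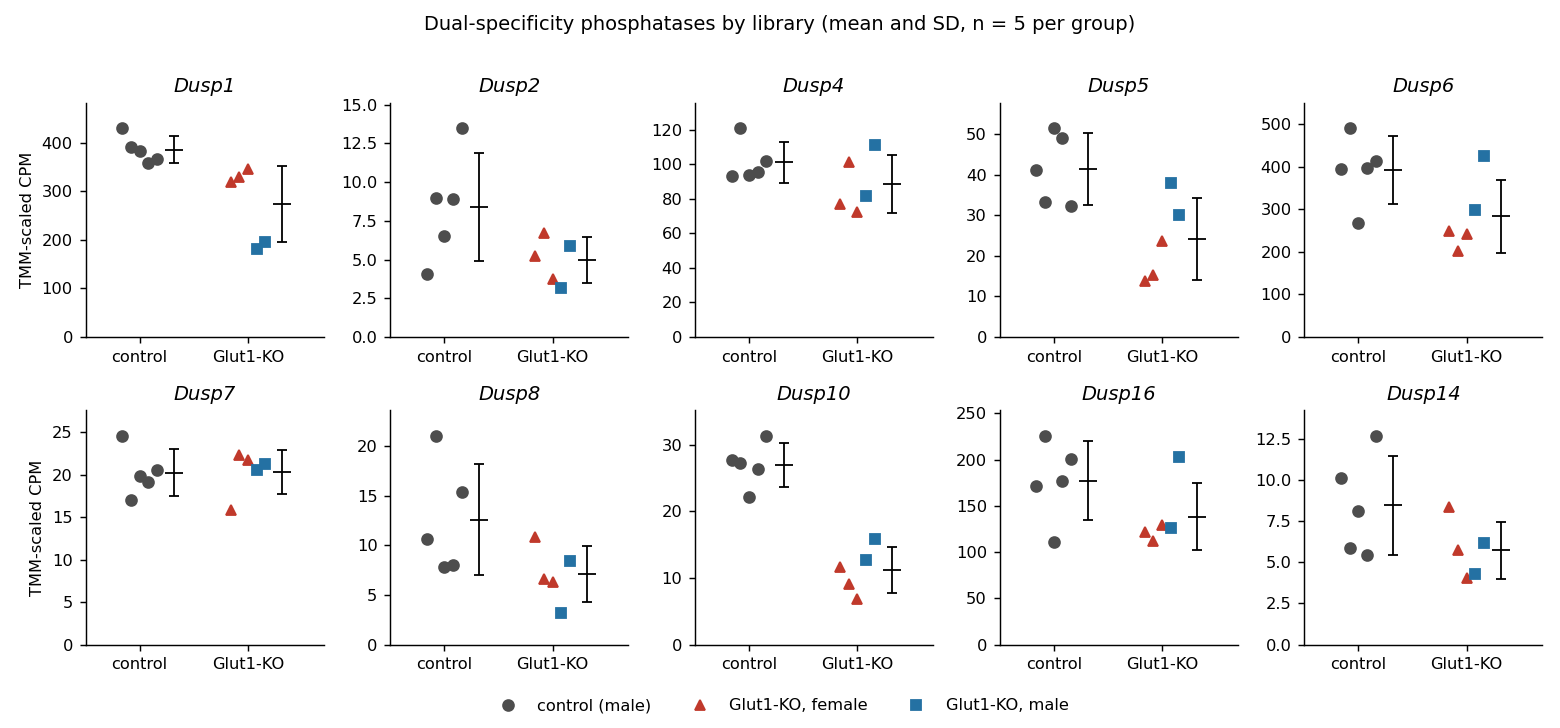
TMM-scaled CPM of the 10 phosphatases in every library, with the mean and SD of each group (n = 5) beside the points; circles are controls (all male), triangles female and squares male Glut1-KO libraries. The groups are apart for Dusp1 and Dusp10, and within Glut1-KO the male pair lies below the females for Dusp1 and above them for Dusp5, Dusp6 and Dusp10.

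Dusp1 (MKP-1) is the prototype of the inducible nuclear phosphatases, an immediate-early gene whose protein acts mainly on p38 and JNK and also on ERK. The 5 controls measured 431, 391, 384, 359 and 367 CPM, the 3 female Glut1-KO libraries 319, 330 and 346 CPM, and the 2 male ones 182 and 195 CPM. The values thus formed 3 separate steps, with the females just below the lowest control and the male pair far below them. The log2 fold change was -0.55 (SE 0.20) over all Glut1-KO libraries and -1.03 (SE 0.11) for the male pair against the controls, which are of the same sex. Between the female and the male Glut1-KO libraries, a contrast that the rule for the genes did not name, Dusp1 was 0.82 log2 units higher in females (SE 0.12), above both males in 3 of 3 libraries, with a limma adjusted p of 0.0717. That p was 0.0188 among genes with an average TPM (transcripts per kilobase of exon, scaled to the library) of at least 20, the filter of the study's methods, and ranged up to 0.363 with the replicate number as a block. The levels in these libraries were known when the genes were chosen, so the p-values of this contrast, here and for the other genes, are not independent of that choice. The gene lies on chr17:26505590-26562128 (GRCm38, minus strand) and its annotation touches that of Ergic1 on the other strand, with 11 shared exon bases. Ergic1 measured 133 to 220 CPM in controls and 126 to 180 CPM in Glut1-KO.

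The promoter of Dusp1 is shown because full cAMP response elements (CRE, the letters TGACGTCA, the site of CREB and ATF factors) were found in Dusp1 and Dusp8 alone among the 9 members with a RefSeq promoter (GRCm38.p6). In the 250 bases before the start, read on both strands, this motif occurred in 1.55% of 32851 promoters. The stretch below is chr17:26508512-26508672, minus strand, written 5′ to 3′, and 8 of its 161 bases lie in annotated exon. Capitals mark the CRE 143 to 136 bases before the start, and upstream of it a copy of the CRE core, TGACG, which any CRE contains and 17.8% of all promoters hold.
Dusp1: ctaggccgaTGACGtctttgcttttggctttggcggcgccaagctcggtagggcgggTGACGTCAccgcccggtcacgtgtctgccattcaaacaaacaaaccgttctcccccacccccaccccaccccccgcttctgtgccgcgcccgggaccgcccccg
The AP-1 motif TGANTCA, present in 6.75% of all promoters, was in 0 of the 9. A match of letters is a description of the sequence and no measure of binding.

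Dusp5 is a nuclear phosphatase specific for ERK and is transcribed in response to it. It measured 41.1, 33.3, 51.5, 49 and 32.2 CPM in controls, 13.8, 15.2 and 23.6 CPM in the female and 38 and 30.1 CPM in the male Glut1-KO libraries. The 3 females were below every control, while replicate 4 lay among the controls and replicate 5 just beneath them. The log2 fold change was -0.87 (SE 0.27) over all Glut1-KO libraries but -0.27 (SE 0.25) for the male pair against the controls. Females differed from males by -0.97 log2 units (SE 0.29, lower in 3 of 3 libraries, limma adjusted p = 0.152). DESeq2 called this last difference, for which its background was 4.36% of genes called lower. Dusp5 was the member with a CArG box, the site of serum response factor, which 1.47% of all promoters hold. All 30 bases of the stretch shown for it lie in annotated exon, but not of Dusp5, whose own annotation starts downstream of it at 53529109. It had 2 copies side by side, 82 to 73 and 72 to 63 bases before the start, in capitals in chr19:53529060-53529089 (plus strand).
Dusp5: tacCCATATTTGGCCTTATATGGgcactca

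The other nuclear members overlapped between the groups. Dusp4 (MKP-2), which acts on ERK and JNK, measured 93.3, 121, 93.6, 95.5 and 102 CPM in controls and 76.7, 101, 72.5, 81.6 and 111 CPM in Glut1-KO replicates 1 to 5. Replicates 1, 3 and 4 were below every control and the other two were among them, for a fold change of -0.20 log2 units (SE 0.14). Dusp2 (PAC-1), best known from activated leukocytes, measured 4.08, 8.98, 6.5, 8.93 and 13.5 CPM in controls and 5.23, 6.73, 3.77, 3.13 and 5.89 CPM in Glut1-KO. The groups overlapped, with control replicate 1 among the lower Glut1-KO libraries, and the log2 fold change was -0.71 (SE 0.34). For neither gene did the female libraries separate from the male ones, with differences of -0.21 (SE 0.20, limma adjusted p = 0.582) and 0.21 log2 units (SE 0.54, limma adjusted p = 0.860). Leukocyte markers were still present after the CD45 depletion, at 29 CPM or less in every library except for Lcp1. Ptprc measured 2.76 ± 0.451 CPM in controls and 7.92 ± 2.19 CPM in Glut1-KO (n = 5 each). Of the 12 tested leukocyte markers, 10 were higher and 2 lower in fitted level in Glut1-KO. The part of leukocyte RNA in the values of Dusp2 was not tested.

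Dusp6 (MKP-3) is the cytoplasmic phosphatase of ERK and a widely used readout of ERK output. Controls measured 395, 491, 268, 397 and 413 CPM, female Glut1-KO libraries 249, 202 and 241 CPM, and male ones 299 and 425 CPM. The 3 females were below every control, whereas the male pair lay within the control range. Its log2 fold change was accordingly -0.49 (SE 0.21) over all Glut1-KO libraries and -0.11 (SE 0.22) for the male pair against the controls. The females were lower than the males by -0.63 log2 units (SE 0.24, 3 of 3 libraries, limma adjusted p = 0.217). For Dusp6 that difference was -0.40 without male replicate 5 and -0.89 without male replicate 4. Dusp7, its close relative with the same target, showed no such pattern. It measured 24.6, 17, 19.8, 19.1 and 20.6 CPM in controls and 15.8, 22.3, 21.7, 20.5 and 21.2 CPM in Glut1-KO. All Glut1-KO libraries but replicate 1, the lowest of the 10, were inside the control range, and the log2 fold change was 0.01 (SE 0.14). Female and male Glut1-KO libraries differed by -0.08 log2 units (SE 0.21, limma adjusted p = 0.860).

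Among the phosphatases that prefer JNK and p38, Dusp10 (MKP-5) had the largest fold change of the 10 genes. It measured 27.7, 27.3, 22.1, 26.3 and 31.4 CPM in controls, 11.6, 9.03 and 6.85 CPM in female and 12.7 and 15.8 CPM in male Glut1-KO libraries. All 5 Glut1-KO libraries were well below the lowest control, with the 3 females lowest. Means were 27 ± 3.33 and 11.2 ± 3.45 CPM (n = 5 each), and the fitted difference was -1.33 on the log2 scale (SE 0.21). The male pair differed from the controls by -0.90 (SE 0.22), and the females from the males by -0.69 log2 units (SE 0.26, lower in 3 of 3 libraries, limma adjusted p = 0.212). Dusp10 lies on chr1:184013302-184075636 (GRCm38, plus strand). It encloses 1700056E22Rik on the other strand, which had 9 to 20 reads per library and 0 exon bases in common with it.

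Dusp16 (MKP-7), which acts on JNK and p38, measured 171, 226, 111, 177 and 201 CPM in controls and 122, 112, 129, 126 and 203 CPM in Glut1-KO replicates 1 to 5. Control replicate 3 was the lowest library of all, so that the groups overlapped fully. Its fitted log2 fold change was -0.35 (SE 0.21), and females differed from males by -0.40 (SE 0.29, limma adjusted p = 0.459). That difference was -0.08 without male replicate 5, the highest Glut1-KO library, and -0.75 without male replicate 4. Dusp8, a phosphatase of the same group best known from brain and heart, was the least abundant per length. It measured 10.7, 21.1, 7.85, 8.01 and 15.4 CPM in controls and 10.9, 6.66, 6.29, 3.22 and 8.4 CPM in Glut1-KO. Replicates 2, 3 and 4 were below every control and the other two within their range. The log2 fold change of -0.83 had an SE of 0.37, and that of females against males, 0.50, an SE of 0.60 (limma adjusted p = 0.664). Dusp8 held the CRE at 2 positions, 107 to 100 and 63 to 56 bases before the start, in capitals in chr7:142095324-142095484 (minus strand).
Dusp8: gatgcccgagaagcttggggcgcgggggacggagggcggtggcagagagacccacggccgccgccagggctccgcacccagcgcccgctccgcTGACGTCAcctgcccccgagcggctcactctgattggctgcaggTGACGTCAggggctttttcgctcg

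Dusp14 (MKP-6) is an atypical member, a small phosphatase without the MAP kinase-binding domain of the others. It measured 10.1, 5.87, 8.13, 5.44 and 12.7 CPM in controls and 8.35, 5.75, 4.04, 4.29 and 6.18 CPM in Glut1-KO. Replicates 3 and 4 were below every control and the rest overlapped with them. Glut1-KO differed from control by -0.52 log2 units (SE 0.29), and females and males differed by 0.14 log2 units (SE 0.47, limma adjusted p = 0.894).

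**Figure D3:**
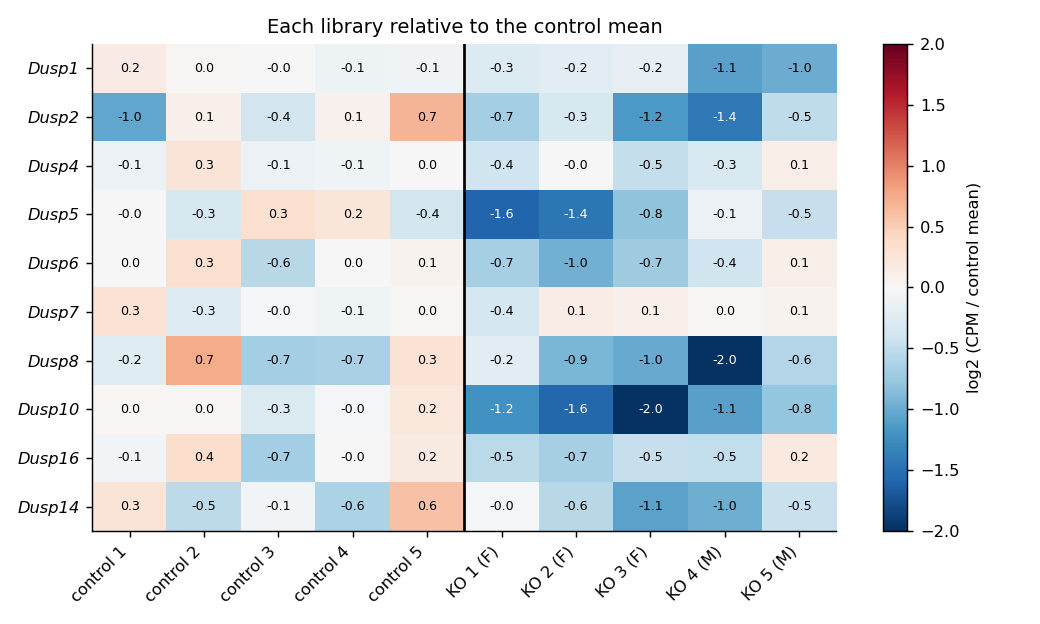
Log2 ratio of each library to the mean of the 5 controls for every phosphatase (colour and printed value; F female, M male). Dusp1 reaches -1.09 and -0.99 in the male pair, Dusp5, Dusp6 and Dusp10 are lowest in female libraries, and Dusp7 stays between -0.36 and 0.28.

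The split inside the Glut1-KO group ran in both directions, with negative female minus male differences for 6 phosphatases of 10 and 49% of all genes. Without male replicate 4 the count was 9 of 10, as Dusp2 (-0.21), Dusp8 (-0.13) and Dusp14 (-0.10) also turned negative and only Dusp1 stayed positive (0.77). Without male replicate 5 the count was 6 of 10, with Dusp4 at 0.00, Dusp2 at 0.68, Dusp8 at 1.23 and Dusp14 at 0.40. All 3 female libraries lay below both male ones for Dusp5, Dusp6 and Dusp10 (20.3% of all genes) and above both for Dusp1 (20.6% of all genes), so that the share of members, 4 of 10, was close to the 2 shares of all genes added together. In the female against male contrast limma called 0 of the 10 phosphatases and 8 of 15922 genes (0.0502%), and edgeR called 0 phosphatases and 12 genes (0.0754%). At an unadjusted limma p under 0.05 there were 4 phosphatases, Dusp1 higher and Dusp5, Dusp6 and Dusp10 lower, against 18.6% of all genes. DESeq2 called Dusp1 and Dusp5, against 7.84% of all genes. With 2 males, 3 females and no female control, the labelled sex, the number in the deposited names and the level of Slc2a1 cannot be told apart in this contrast. All tested endothelial, ciliated and club cell markers were higher in the females (medians 0.93, 1.34 and 0.71). Fibroblast and tumour epithelial markers had negative medians (-0.79 and -0.58). The part of cell mixture in the split was not tested.

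Males were the only sex with both genotype labels. Within them, the 2 Glut1-KO libraries were below every control for Dusp1 and Dusp10 (8.57% of all genes). Slc2a1 in that pair, at 92.4 and 103 CPM, lay within the control range (log2 fold change 0.06, SE 0.22). The 3 female Glut1-KO libraries were below every (male) control for Dusp1, Dusp5, Dusp6 and Dusp10 (5.41% of all genes). In the male contrast 9 of the 10 phosphatases had negative fold changes, as had 51.1% of all genes. Without male replicate 4 the count was 6 of 10, with Dusp4 and Dusp6 (each 0.14) and Dusp16 (0.24) turned positive. Both limma and edgeR called Dusp1, lower, among 3 genes in all (each 0.0126% of genes called lower), and DESeq2 called Dusp1 and Dusp10 (1.28% of genes called lower). This contrast shares all 5 controls and the male pair with the comparison known when the genes were chosen, so these counts too are a description from which nothing is read. The male pair also shares a single number in the deposited names, so that it may not stand for separate animals. The limma call was lost when any 1 of the 10 libraries was left out, with the fold change then between -1.06 and -0.98. The male fold changes of Dusp8 (-1.15, SE 0.54), Dusp2 (-0.84, SE 0.49) and Dusp14 (-0.60, SE 0.42) came with large errors and rested on single libraries, at -0.51, -0.41 and -0.36 without replicate 4 and -1.87, -1.30 and -0.86 without replicate 5. Dusp5 (-0.27, SE 0.25) was at -0.43 and -0.07 in the same fits, and those of Dusp4 (-0.08, SE 0.18), Dusp7 (0.06, SE 0.19) and Dusp16 (-0.11, SE 0.26) were within 1 SE of 0. Without replicate 5, Dusp4 (-0.28, SE 0.23), Dusp6 (-0.34, SE 0.27) and Dusp16 (-0.43, SE 0.32) were beyond 1 SE.

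**Figure D4:**
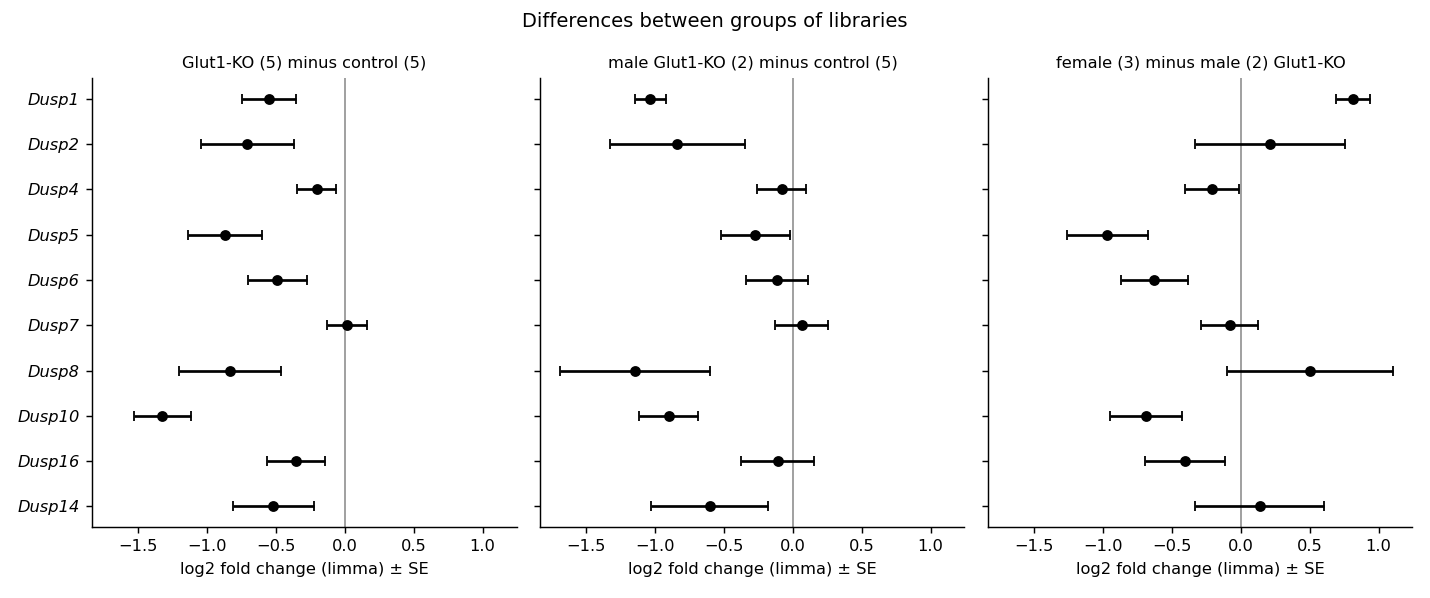
Log2 fold change with its SE (limma) for the 10 phosphatases in Glut1-KO against control (5 and 5 libraries), male Glut1-KO against control (2 and 5) and female against male Glut1-KO (3 and 2). Dusp1 has the smallest SE in the male contrast (-1.03) and is the highest in the female against male contrast (0.82), while Dusp5 is at -0.27 and -0.97.

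Other genes of the pathway were read for comparison, from lists drawn up with results of these data known. In these lists, limma called 0 genes for Glut1-KO against control, and the counts at an unadjusted p under 0.05 and by DESeq2 are given with each list where they were above 0. Over all genes tested, 4.02% were lower and 3.66% higher at an unadjusted limma p under 0.05. DESeq2 called 0.676% of all genes lower and 0.708% higher. Of 18 further dual-specificity phosphatases 11 were measured well enough to test, of which 7 were higher and 4 lower in fitted level (median log2 fold change 0.01). Among them Dusp12, an atypical phosphatase, stood at 0.29 (SE 0.14) and Dusp11, which acts on RNA, at -0.18 (SE 0.10). Phosphatases of other families that act on MAP kinases split into 3 higher and 4 lower (7 tested of 8, median -0.01). The MAP kinases themselves split into 3 higher and 8 lower (11 tested of 13, median -0.08), including Mapk13 (p38δ) at 0.68 (SE 0.17) and Mapk6 (ERK3) at -0.66 (SE 0.23). Of these kinases 1 was higher and 2 were lower at an unadjusted limma p under 0.05, and DESeq2 called 1 higher. Of 17 activators, from Ras proteins to MAP kinase kinases, 6 were higher and 11 lower (median -0.09; 1 and 3 at an unadjusted p under 0.05).

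Target genes of the pathway were mixed. The 14 ERK feedback and output genes split into 6 higher and 8 lower (median -0.07), and 3 were lower at an unadjusted p under 0.05 (4.02% of all genes). Fosl1, a Fos-family transcription factor, measured 23, 20.9, 17.9, 27.6 and 15.7 CPM in controls, 6.18, 5.02 and 5.68 CPM in female and 12.4 and 21 CPM in male Glut1-KO libraries. As with Dusp5 and Dusp6, its females were below every control, and its log2 fold change was -1.28 (SE 0.35). Spry1 of the same list, named after its values were seen, had its females above every control. It measured 88.3, 91.6, 117, 120 and 136 CPM in controls. Its Glut1-KO libraries stood at 141, 149 and 165 CPM in females and 84.1 and 88.2 CPM in males. The female minus male difference was positive for 7 of these 14 genes and negative for 7 (median -0.03). Among the 17 immediate-early and stress genes, 16 had negative fold changes in Glut1-KO (50.7% of all genes) and 1 a positive one (median -0.36). At an unadjusted limma p under 0.05, 7 were lower (4.02% of all genes), and DESeq2 called 5 lower (0.676% of all genes). The groups did not overlap for 3 of the 17 genes, Atf3 among them, all lower in Glut1-KO (1.06% of all genes). Atf3, a stress-induced CRE-binding factor, measured 212 to 413 CPM in controls and 131 to 179 CPM in Glut1-KO (log2 fold change -0.94, SE 0.17). Klf4, an inducible zinc finger factor, measured 95.4 to 218 CPM in controls and 74.6 to 95.7 CPM in Glut1-KO (-0.93, SE 0.20), with control replicate 2 among the Glut1-KO libraries. For the male libraries all 17 genes of this list were lower than in controls (median -0.71), as were 51.1% of all genes. Between female and male Glut1-KO libraries the difference was negative for 49% of all genes and positive for 13 of these 17 (median 0.39). In the female minus male difference this is the sign of Dusp1 and not of Dusp5, Dusp6 or Dusp10, while in the male contrast all 4 phosphatases had negative values (Dusp6 only with replicate 4 included). Immediate-early genes can also respond to tissue dissociation, whose part in these values was not tested.

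The summed level of the 10 phosphatases was 973 to 1340 CPM in controls and 771 to 1020 CPM in Glut1-KO. Markers of other cell types stood as follows in the same libraries, and their part in the values of the phosphatases was not tested. Leukocyte markers were higher for 10 of 12 tested genes (14 listed), with a median log2 fold change of 0.47, and DESeq2 called 5 higher (0.708% of all genes). For 5 of the 12, Ptprc, Coro1a, Laptm5, Tyrobp and Fcer1g, every Glut1-KO library was above every control, against 0.798% of all genes (Laptm5 and Tyrobp are named after their values were seen). Endothelial markers were higher for 8 of 8 (median 0.65; summed 110 to 385 CPM in controls and 164 to 529 CPM in Glut1-KO). Fibroblast markers were lower for 5 of 6 (median -0.20; 83.6 to 352 and 51.2 to 398 CPM). Ciliated cell markers were lower for 5 of 5 tested (6 listed; median -0.94; 9.6 to 212 and 13.3 to 50.7 CPM), and club cell markers for 3 of 3 (median -1.04; 1680 to 9620 and 921 to 6530 CPM). Alveolar type 1 markers were higher for 3 of 4 (median 0.21; 1000 to 1860 and 1150 to 2280 CPM) and tumour epithelial markers for 4 of 7 (median 0.05). The female minus male Glut1-KO medians were 0.34 for leukocyte, 0.93 for endothelial, -0.79 for fibroblast and 1.34 for ciliated cell markers. They were 0.71 for club cell, 0.67 for alveolar type 1 and -0.58 for tumour epithelial markers. In the male contrast, the same lists in this order stood at 0.52, 0.08, 0.61, -2.05, -1.46, -0.26 and 0.33. Of all these markers, limma called 0. For Glut1-KO against control at an unadjusted limma p under 0.05, there were 5 leukocyte markers and 1 endothelial marker, all higher (3.66% of all genes). DESeq2 also called 1 ciliated cell marker lower (0.676% of all genes), and the summed ranges of all lists overlapped between the groups.

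The genes most like Dusp1, Dusp6 and Dusp10 in their pattern were found by Pearson's r of log2 CPM over the 10 libraries among 15912 other genes. These correlations are descriptions, since the libraries share genotype, sex and name number and the genes were taken from the top of a long ranking. Among the genes most like Dusp1 was Letm2, with r = 0.951 (Spearman's rho 0.830) and r = 0.907 after removal of the group means. It measured 4.61, 5.09, 4.62, 4.71 and 4.7 CPM in controls, 3.75, 4.28 and 4.45 CPM in female and 2.98 and 3.17 CPM in male Glut1-KO libraries, the same 3 steps as Dusp1. Tefm (0.935), Dnajb4 (0.925) and Kat6b (0.925) were the others reported. Closest to Dusp6 was Myc, the transcription factor, with r = 0.960 (rho 0.976, 0.936 within groups). It measured 60.9, 80.3, 48.5, 66.4 and 71.8 CPM in controls, 37.7, 36.2 and 33.8 CPM in female and 55.3 and 71.1 CPM in male Glut1-KO libraries. As for Dusp6, the male pair lay within the control range and the females beneath it. Nanos1 (0.959), Qtrt1 (0.953), Polr3k (0.951) and 1110038B12Rik (0.950) came after Myc. For Dusp10, whose groups do not overlap, the genes reported were Rac1, a small GTPase (r = 0.961, 0.804 within groups), Edn2 (0.952, 0.724), Aatf (0.950, 0.700) and Hnrnpab (0.945, 0.894), of which the second value of each is r after removal of the group means.

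**Figure D5:**
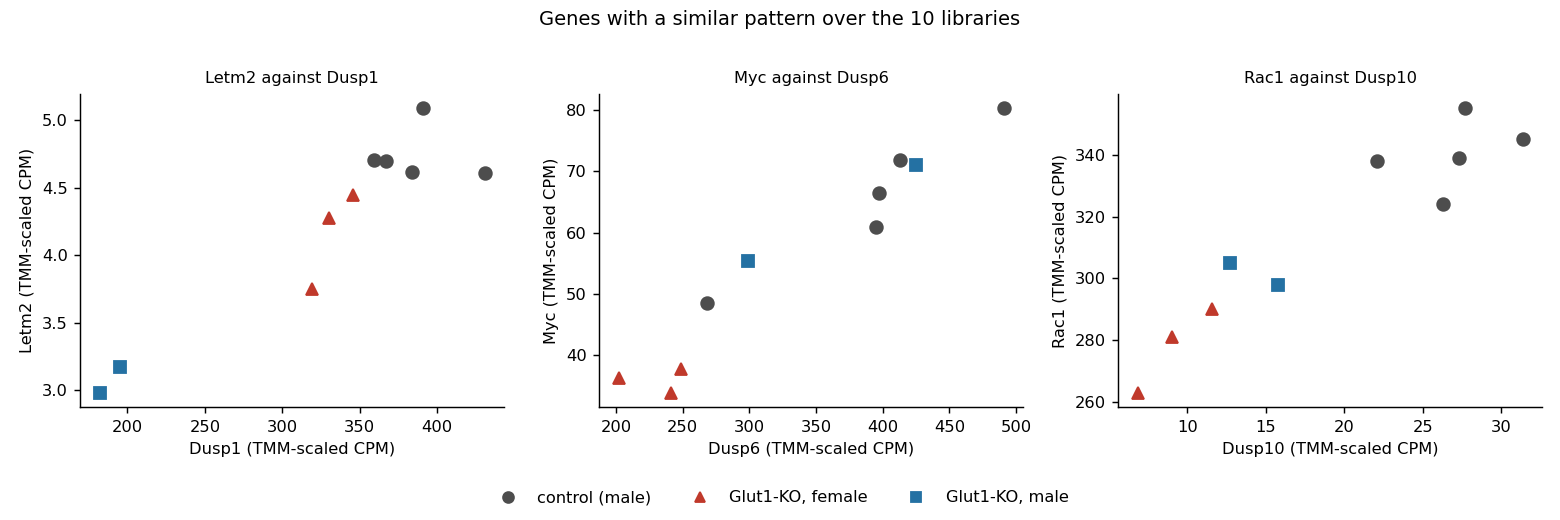
TMM-scaled CPM of Letm2 against Dusp1, Myc against Dusp6 and Rac1 against Dusp10 in the 10 libraries (linear axes that do not start at 0; circles controls, triangles female and squares male Glut1-KO). The male pair is apart at the lower left for Dusp1 and within the controls' range for Dusp6, and all Glut1-KO libraries lie below the controls for Dusp10.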

How the data were processed

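RNA of CD45-negative tumour fractions was prepared as stranded mRNA libraries (TruSeq). Per the labels, the submitters' processing notes name bcl2fastq 2.17, cutadapt 1.4.2, HISAT2, featureCounts 1.4.4, edgeR and mm10. The strand setting of the counting and the annotation release are not given in the sources used here. The authors deposited raw counts per gene for 39017 genes. A deposited table of log2 values was not used here. The 10 count columns of the joint table equalled the single files.

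Genes were kept by edgeR 4.0.16 filterByExpr (minimum count 10, minimum total 15; 15922 genes), scaled by TMM, put on the log2 scale with precision weights by voom (prior count 0.5), then analysed in limma 3.58.1 under R 4.3.3. TMM, voom and limma follow the methods of the study, which kept genes by an average TPM of at least 20. That filter (7290 genes) was run as an alternative chosen after seeing the data. Benjamini-Hochberg adjustment covered all 15922 genes, and calls needed an adjusted p under 0.05. Glut1-KO was compared with control in a fit with 2 groups. The contrasts by sex came from a fit with 3 groups (control, female and male Glut1-KO). edgeR's quasi-likelihood test, DESeq2 1.42.0, other scalings and filters, blocks, sex terms and the omission of each library were run as alternatives. The fits were tested on simulated data, where DESeq2 made more false calls than limma or edgeR and also recovered more of the changed genes. At the smaller simulated effect, limma and edgeR missed most of the changed genes, as did DESeq2 in the female against male contrast. The simulated libraries were drawn independently, without any correlation by name number.

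CPM were TMM-scaled, and RPKM divided them by the exon length of GENCODE M21 (GRCm38), in which 37607 gene identifiers (96.4%) were found. Promoters came from RefSeq (GRCm38.p6; 9 of the 10 genes matched). The members and lists were chosen with earlier results of these data known. All 10 members were named, with up to 3 genes of each other list by the smallest limma p for Glut1-KO against control, and the 5 genes most like Dusp1, Dusp6 and Dusp10. Some genes that this rule names are not reported here. Positive and negative strand reads of overlapping genes could be mixed if counting ignored strand.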

Additional observations from a re-analysis of the deposited data

Results flagged for a closer look

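Values far from the rest of their group were looked for by Dixon's criterion for groups of 5 (a gap above 0.71 of the range), in 150 groups of values of the named genes and total counts. There were 9 such values, where chance gives about 7.5. Of the phosphatases, Dusp7 was low in Glut1-KO replicate 1 (15.8 CPM, the others 20.5 to 22.3) and Dusp16 high in Glut1-KO replicate 5 (203 CPM, the others 112 to 129). Glut1-KO replicate 1 was also high for Ptprr, a receptor phosphatase that acts on ERK (4.41 CPM, the others 0.634 to 0.859), and for Scgb3a2, a club cell secretoglobin (18.9 CPM, the others 6.2 to 7.5). Control replicate 2 was high for Mapk13 (88.4 CPM, the others 56.5 to 62.1), for Letm2 (5.09 CPM, the others 4.61 to 4.71) and in total counts (49.8 M, the others 40.1 to 41.4 M). Egfl7, an endothelial gene, was high in control replicate 3 (24.7 CPM, the others 12.1 to 14.9), and Edn2 in control replicate 4 (1.09 CPM, the others 0.81 to 0.892).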

How the results depend on the processing

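The log2 fold change of Glut1-KO against control kept its sign in each of the 20 or 21 alternatives that tested the gene for 9 of the 10 phosphatases. The ranges were -1.47 to -0.90 for Dusp10, -1.04 to -0.41 for Dusp1, -1.04 to -0.27 for Dusp5 and -0.63 to -0.11 for Dusp6, with the values nearest 0 of Dusp5, Dusp6 and Dusp10 in the fits within males. Dusp7 took values from -0.05 to 0.10 over the alternatives. Of 40 other named genes, 6 changed sign. With sex as a covariate or male libraries only, Slc2a1 was at 0.06, Col1a2 at 0.56, and Ager and Pdpn at -0.32. Without single libraries, the sign also changed in the ranges of -0.05 to 0.10 for Dusp7, -0.97 to 0.10 for Ptprr, -0.63 to 0.16 for Col1a2, -0.12 to 0.52 for Pdpn and -0.17 to 0.29 for Aqp5. The causes were not tested. Without TMM the median of all genes shifted by -0.01.

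For Glut1-KO against control (main counts 0 genes and 0 phosphatases), DESeq2 called 215 genes and 1 phosphatase (Dusp10), the sex covariate 3 genes and 1 phosphatase (Dusp1), and male libraries alone 1 gene. Leaving out single libraries gave 0 to 1 genes, the 1 without control replicate 3. For female against male Glut1-KO (8 genes, 0 phosphatases), DESeq2 called 1196 genes and 2 phosphatases, a filter of 1 CPM in 5 libraries 14 and 1 (Dusp1), and shared name numbers as correlated libraries 15 and 1 (Dusp1), and leaving out single libraries 5 to 10 genes (5 without control replicate 1, 3 or 4). For male Glut1-KO against control (3 genes, 1 phosphatase), DESeq2 called 361 genes and 2 phosphatases and correlated name numbers 27 genes. The correlation estimated between libraries of the same name number was negative (-0.15) in the fit with 3 groups behind both contrasts by sex. It was 0.07 in the fit with 2 groups. The filter on an average TPM of at least 20, added after seeing the data, tested 6 of the 10 phosphatases (Dusp1, Dusp4, Dusp5, Dusp6, Dusp10 and Dusp16). It called 0 genes for Glut1-KO against control, 12 genes and 1 phosphatase (Dusp1) for female against male Glut1-KO, and 8 genes and 1 phosphatase (Dusp1) for the male contrast. In the male contrast, library totals without TMM and no filter each called 0 genes and 0 phosphatases, and leaving out single libraries gave 0 to 2 genes and 0 phosphatases.

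Same-numbered replicates did not deviate together more than others (correlations 0.04, -0.09, 0.03, 0.20 and -0.13, against -0.27 to 0.34 for other pairs). These values show no pairing by number but cannot exclude it. With a replicate block the calls were 0 genes for Glut1-KO against control, 4 for female against male Glut1-KO and 0 for the male contrast, with 0 phosphatases in each. Dusp2, Dusp8 and Dusp14 had the highest coefficients of variation among controls (41.6%, 44.8% and 35.9%) with reads as low as 161, 315 and 214 in a control library, and the part of read number in that spread was not tested.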
